A study of Homo sapiens with 2 samples.

Results

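The ZSCAN and ZKSCAN genes encode zinc finger proteins that carry a SCAN domain. They were taken from the count tables by gene symbol (ZSCAN or ZKSCAN followed by a number, with an optional letter and digit), which gave 27 of 24462 symbols. ZSCAN10 was left out by that rule. It had 2344 reads in hESC and 0 reads in NPC, at least 1223-fold lower against a floor of 3 reads. Counts of genes called lower in the family therefore leave out a gene that would have been among them. RNA was sequenced from 1 library of H9 (hESC), an established line of human embryonic stem cells that was kept undifferentiated, and from 1 library of neural precursor cells (NPC) that were made from H9 by co-culture with a feeder layer of MS5, a mouse stromal line. Neither label names a genotype change or an added agent, and both libraries come from the same line. Human counts do not show how much of the NPC library came from feeder cells.

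The SCAN domain is a leucine-rich stretch through which these proteins pair with each other, and it is found in vertebrates only. Proteins named ZKSCAN also carry a KRAB domain, which in many proteins recruits the corepressor TRIM28 (KAP1) and through it the histone methyltransferase SETDB1 and heterochromatin proteins. Many of the genes lie in tandem clusters beside each other, and ZSCAN10 and ZSCAN4 are the ones best known from pluripotent cells and the early embryo.

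Counted reads came to 19686728 for hESC and 24065750 for NPC. Levels are given as CPM, a gene's reads relative to the size of its library, after TMM scaling (trimmed mean of M-values) of both library sizes. A gene was measured if it reached 5 CPM in either library, which took 86.9 reads in hESC and 136 reads in the NPC library. It was called higher or lower in the NPC library if its ratio was at least 2-fold at the bound of the exact 95% counting interval nearest to no change. With 1 library per group there was no test between conditions and no replicate error. The intervals cover counting error only. No label names molecular identifiers, so reads may not stand for independent molecules. All differences are between these 2 libraries.

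The labels fit the marker genes. All 7 pluripotency markers were measured and called lower in the NPC library. Of 9 neural progenitor markers 8 were measured, and 6 of these were called higher and none lower. Markers of other cells moved as well: 6 of 9 measured neuron markers were called higher and 1 lower, with a summed level of 357 CPM in hESC and 1745 CPM in the NPC library. Of 8 measured stroma and fibroblast markers 6 were called higher and 1 lower, with a summed level of 831 CPM against 1778 CPM. Blood and endothelium markers were below the filter except KDR, and CD34 had 0 reads in the NPC library. The part of these cells in the results on zinc finger genes was not tested. In such bulk RNA, fewer cells of a type and less RNA per cell cannot be told apart.

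Most ZSCAN and ZKSCAN genes were present at low to moderate levels in both libraries, and those that differed most were higher in the NPC library. Of the 27 genes 22 were measured. Of these 6 were called higher (27.3%) and none was called lower, where 19.6% of all 13535 measured symbols were called higher and 19.8% lower. The 6 were ZSCAN18, ZKSCAN1, ZSCAN23, ZSCAN26, ZSCAN30 and ZKSCAN8. The other 16 measured genes did not pass the size rule. ZSCAN18, ZSCAN23, ZSCAN16 and ZSCAN22 reached 5 CPM only in NPC, so a call towards hESC was out of reach for them. No gene of the family reached it in the hESC library alone.

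**Figure D1:**
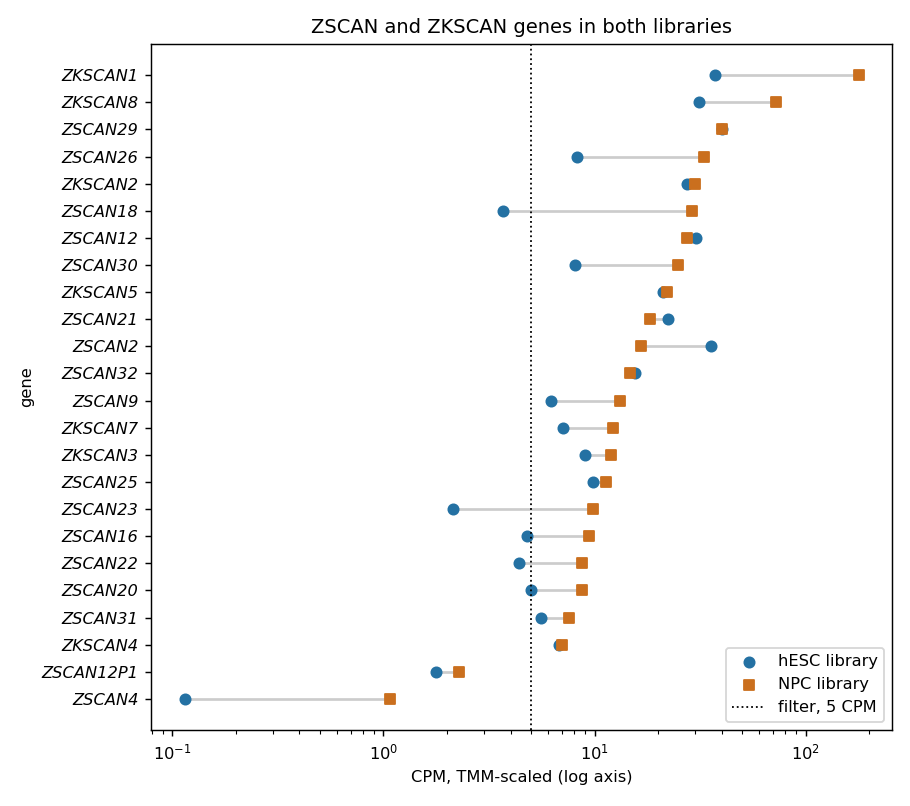
Level of each ZSCAN and ZKSCAN gene in the hESC library (circles) and the NPC library (squares), in TMM-scaled CPM on a log axis, with the 5 CPM filter as a dotted line. ZKSCAN1 reached 178 CPM in the NPC library, and ZSCAN2 was the gene with the widest gap in the other direction; ZSCAN1, ZSCAN5A and ZSCAN5B had 0 reads in both libraries and are not drawn.

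ZKSCAN1, which encodes a protein with KRAB and SCAN domains and whose locus is also known for an abundant circular RNA in brain and liver, was the most strongly represented gene of the family in the NPC library. It had 649 reads (37.3 CPM) in hESC and 4842 reads (178 CPM) in NPC, a ratio of 4.76 (95% interval 4.39 to 5.18). Once the trend of the ratio with transcript length was removed, ZKSCAN1 had a log2 ratio of 1.90 against 2.25, which is below 4-fold. It was still called higher. It alone took 10.9% of the summed CPM of the family in hESC and 29.2% in the NPC library. Divided by the longest transcript of each gene, its level was 3.96 CPM per kilobase in the hESC library, seventh in the family, and 18.9 CPM per kilobase in the NPC library, the highest. Counts per symbol do not separate the linear from the circular RNA.

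ZSCAN18, known as a gene whose promoter is often methylated in tumours, had the largest ratio among the measured genes. Its 64 reads (3.68 CPM) in the hESC stood against 790 reads (29 CPM) in NPC, a ratio of 7.83 (6.11 to 10.3). Its gene body overlaps ZNF135 on the other strand, which had 8 and 42 reads. How reads in the overlap were assigned is not given in the sources used here, and their part in the ratio of ZSCAN18 was not tested.

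ZSCAN26, also known as SRE-ZBP for binding a serum response element, had 144 reads (8.28 CPM) in hESC and 900 reads (33.1 CPM) in NPC, a ratio of 3.98 (3.35 to 4.80). ZSCAN23 had 37 reads (2.13 CPM) and 266 reads (9.78 CPM), a ratio of 4.54 (3.25 to 6.67). Both lie in the same stretch of chromosome 6, where ZSCAN23 was the less abundant of them in either library per kilobase of transcript (0.681 against 2.92 CPM per kilobase in hESC and 3.13 against 11.7 in the NPC library).

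ZSCAN30 had 140 reads (8.05 CPM) in hESC and 678 reads (24.9 CPM) in NPC, a ratio of 3.09 (2.58 to 3.74). ZNF397, another SCAN zinc finger gene that overlaps it on the other strand, had 178 reads (10.2 CPM) and 362 reads (13.3 CPM) and was not called. ZKSCAN8, with KRAB and SCAN domains, had 541 reads (31.1 CPM) in hESC and 1957 reads (71.9 CPM) in the NPC library. Its ratio of 2.31 (2.10 to 2.55) was the smallest of the called genes, and it was not called once the trend of the ratio with transcript length was removed (log2 ratio 0.91 against 1.21). Its pseudogene ZNF192P1 had 17 and 84 reads, and how reads that match both were counted is not given in the sources used here.

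**Figure D2:**
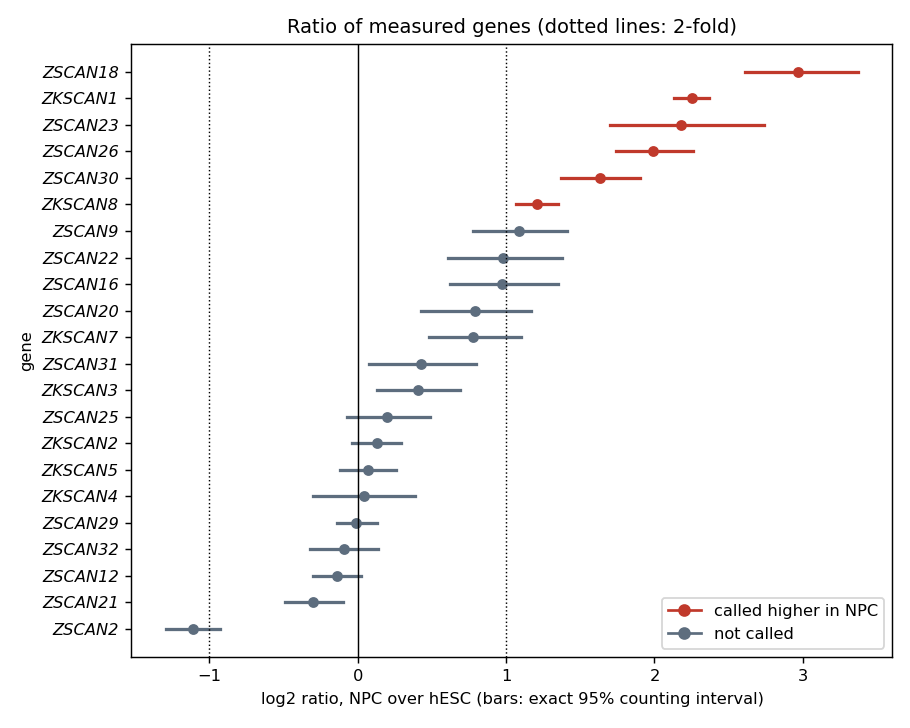
Log2 ratio, NPC over hESC, of the 22 measured ZSCAN and ZKSCAN genes, with exact 95% counting intervals as bars and dotted lines at 2-fold. The intervals of the 6 called genes lie wholly above 2-fold, and ZSCAN2 is the gene at the low end with a log2 ratio of -1.11.

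ZSCAN2 was the gene farthest below no change. It had 621 reads (35.7 CPM) in hESC and 450 reads (16.5 CPM) in NPC, 2.16-fold lower (1.91 to 2.44). The interval reached below 2-fold, so it was not called. Per kilobase of transcript it was second in the family in the hESC library (9.37 CPM per kilobase) and the 12th in the NPC library (4.34).

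The sequence before the start sites was compared for genes that differed and for ZSCAN2, to show what these promoters hold. RefSeq's promoter table (GRCh38.p14, another build than that of the counts) had entries for 23 of the 27 genes and for 19 of the 22 measured ones. ZSCAN16, ZSCAN26, ZKSCAN2 and ZSCAN12P1 had none. The 250 bases before the first listed start are printed 5′ to 3′ on the gene's strand, for ZKSCAN1 at chr7:100015346-100015595 (plus strand), ZSCAN30 at chr18:35290230-35290479 (minus), ZSCAN23 at chr6:28443492-28443741 (minus) and ZSCAN2 at chr15:84600759-84601008 (plus). Capitals mark every match on either strand of 6 motifs. The CCAAT box was searched as CCAAT, the GC box as GGGCGG and the core of ETS factor sites as CCGGAAG. The E-box was searched as CACGTG, the short form of the cAMP response element as TGACG and the TATA box as TATAAA. No letters were shared between matches of different motifs in the printed windows.
ZKSCAN1: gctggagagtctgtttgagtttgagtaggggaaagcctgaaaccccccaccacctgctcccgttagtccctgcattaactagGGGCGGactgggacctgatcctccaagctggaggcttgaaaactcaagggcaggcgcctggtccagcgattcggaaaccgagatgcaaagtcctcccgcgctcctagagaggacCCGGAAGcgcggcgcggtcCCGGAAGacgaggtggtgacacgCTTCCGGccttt
ZSCAN30: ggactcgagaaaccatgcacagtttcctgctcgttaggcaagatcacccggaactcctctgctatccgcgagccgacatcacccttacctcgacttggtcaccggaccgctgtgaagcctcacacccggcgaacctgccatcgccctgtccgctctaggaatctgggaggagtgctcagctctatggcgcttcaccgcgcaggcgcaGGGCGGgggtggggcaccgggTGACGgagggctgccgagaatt
ZSCAN23: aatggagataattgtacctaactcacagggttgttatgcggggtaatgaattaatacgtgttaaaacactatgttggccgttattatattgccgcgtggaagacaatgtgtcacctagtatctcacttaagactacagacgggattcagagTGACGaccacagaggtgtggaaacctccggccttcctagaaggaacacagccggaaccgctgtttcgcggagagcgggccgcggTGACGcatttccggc
ZSCAN2: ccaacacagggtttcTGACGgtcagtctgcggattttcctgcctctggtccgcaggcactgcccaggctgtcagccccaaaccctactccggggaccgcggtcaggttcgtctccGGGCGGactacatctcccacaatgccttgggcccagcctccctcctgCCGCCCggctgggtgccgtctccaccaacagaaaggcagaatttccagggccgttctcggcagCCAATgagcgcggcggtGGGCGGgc

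The ZKSCAN1 window held 3 ETS cores, 2 on the printed strand and 1 on the other, and 1 GC box. The ZSCAN30 window held 1 GC box and 1 TGACG, and that of ZSCAN23 held 2 TGACG and none of the other motifs. The ZSCAN2 window held 3 GC boxes, 1 CCAAT box and 1 TGACG. Over the family, 9 of 19 measured genes with an entry had an ETS core in the 250 bases, where 15.4% of 10039 measured symbols did and 8.8% of all 27305 entries. GC boxes were found in 12 of 19, where 67.0% of measured symbols had one, and CCAAT boxes in 5 of 19 against 35.1%. TGACG was found in 5 of 19 against 29.5%, and the E-box in 1 of 19 against 8.7%. No measured gene of the family had a TATA box in the window, a motif of 5.1% of measured symbols. Of the 5 called genes with an entry, 2 had an ETS core (ZKSCAN1 and ZKSCAN8), 2 had TGACG (ZSCAN30 and ZSCAN23) and none a CCAAT box. The windows of the called genes ZSCAN18 and ZKSCAN8 are not printed. That of ZSCAN18 held 3 GC boxes and 1 E-box, and that of ZKSCAN8 held 2 ETS cores. The number of CpG dinucleotides in the window had a median of 18 over the 19 genes and 21 over the measured symbols. Whether a window overlaps a transcript that starts further upstream was not checked. A match describes letters and is not a binding site.

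Just under the rule on the higher side was ZSCAN9, with 108 reads (6.21 CPM) and 360 reads (13.2 CPM), a ratio of 2.12 (1.71 to 2.67). It was called with library totals in place of TMM. ZSCAN22, with 76 and 236 reads (4.37 and 8.68 CPM), had a ratio of 1.98 (1.53 to 2.60). ZSCAN16 had 83 and 256 reads (4.77 and 9.41 CPM), a ratio of 1.96 (1.53 to 2.56). The antisense gene ZSCAN16-AS1 had 50 and 189 reads, and without a stated strand setting reads in its overlap with ZSCAN16 cannot be told apart. ZSCAN20 had 87 and 236 reads (5 and 8.68 CPM) and ZKSCAN7 123 and 332 reads (7.08 and 12.2 CPM), with ratios of 1.73 (1.35 to 2.24) and 1.72 (1.40 to 2.14). These 5 genes all had intervals above no change and below the size rule at their near bound.

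ZKSCAN3, whose protein is known as a repressor of autophagy and lysosome genes, had 157 reads (9.03 CPM) in hESC and 326 reads (12.0 CPM) in NPC, a ratio of 1.32 (1.09 to 1.62). ZSCAN31 had 97 and 205 reads (5.58 and 7.54 CPM), a ratio of 1.35 (1.06 to 1.74). The bodies of these genes overlap on opposite strands, and without a stated strand setting reads in the overlap cannot be told apart.

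The remaining 8 measured genes had ratios closer to no change. ZSCAN29 had 701 and 1093 reads (40.3 and 40.2 CPM). ZKSCAN2 had 475 and 811 reads (27.3 and 29.8 CPM), and ZKSCAN5 365 and 598 reads (21.0 and 22.0 CPM). ZSCAN12 had 525 and 746 reads (30.2 and 27.4 CPM), and ZSCAN32 272 and 400 reads (15.6 and 14.7 CPM). The intervals of these genes, and of the genes ZSCAN25 (170 and 307 reads, 9.78 and 11.3 CPM) and ZKSCAN4 (118 and 190 reads, 6.79 and 6.98 CPM), held no change. ZSCAN21, reported as a regulator of the alpha-synuclein gene, had 388 reads (22.3 CPM) in hESC and 495 reads (18.2 CPM) in NPC, 1.23-fold lower (1.07 to 1.40). Its gene body overlaps ZNF3 on the other strand, which had 854 and 1279 reads. That of ZSCAN29 overlaps TUBGCP4, with 678 and 1500 reads. Without a stated strand setting, reads in these overlaps cannot be told apart. With library totals every log2 ratio was 0.36 higher, and ZSCAN21 (0.06), ZSCAN12 (0.22), ZSCAN32 (0.27) and ZSCAN29 (0.35) then lay above no change. ZSCAN2 alone stayed below it, at -0.75.

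The 5 genes that were not measured were ZSCAN4, ZSCAN12P1, ZSCAN1, ZSCAN5A and ZSCAN5B. ZSCAN4, a gene of the cleavage-stage embryo linked to telomere maintenance, had 2 reads in hESC and 29 reads (1.07 CPM) in NPC, a ratio of 7.54 (2.34 to 80.1). It was called higher only with a filter of 1 CPM or none. ZSCAN12P1, a pseudogene related to ZSCAN12, had 31 and 62 reads. ZSCAN1, ZSCAN5A and ZSCAN5B had 0 reads in both libraries, which by counting error alone allows up to 0.173 CPM in hESC and 0.110 CPM in the NPC library. The body of ZSCAN5A overlaps ZNF542P on the other strand, which had 11 and 65 reads. How reads in overlaps or reads that match several genes were counted is not given in the sources used here. A count of 0 therefore need not mean that RNA was absent.

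The whole family made up 344 CPM in hESC and 609 CPM in NPC, a ratio of 1.77. Without ZKSCAN1 the sums were 306 CPM and 431 CPM, a ratio of 1.41. Per kilobase of transcript the 22 measured genes were low beside other genes. Their median was 2.89 CPM per kilobase in the hESC library, where the median of 12831 measured symbols with a length was 7.33, and 2 of the 22 lay above that median. In the NPC library the medians were 4.49 and 7.54 CPM per kilobase, and 4 of 22 lay above. ZSCAN21, whose body overlaps the more abundant ZNF3, was the highest of the family in the hESC library (11.1 CPM per kilobase). ZKSCAN1, ZSCAN26 (11.7) and ZKSCAN8 (9.75) led in the NPC library. The order rests on 1 library each, so neighbours in it cannot be separated beyond counting error.

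The median log2 ratio of the family was 0.61, where the median of all measured symbols was -0.09. With a filter of 20 CPM, which left 11 genes, the medians were 0.13 and -0.20. The point ratio was above no change for 17 of 22 genes (77.3%), as it was for 47.6% of all measured symbols. Of the 22 intervals 13 lay wholly above no change, where 42.5% of all measured symbols did. The 17 and the 13 both include ZSCAN18, ZSCAN23, ZSCAN16 and ZSCAN22. These 4 genes passed the filter only through the NPC library, so their ratios could not lie below no change. They also enter the median of 0.61. The genes ZSCAN2 and ZSCAN21 had intervals wholly below, where 47.2% of all measured symbols did. With a near bound of 4-fold, ZKSCAN1 and ZSCAN18 were called higher and none lower, beside 9.13% and 7.26% of all measured symbols. With library totals, 7 genes were called higher and none lower, beside 27.0% and 13.2%, and the median log2 ratio was 0.96 where that of all measured symbols was 0.31.

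The 7 genes named ZKSCAN and the 20 named ZSCAN are given side by side. All 7 ZKSCAN genes were measured, and 2 of them were called higher (28.6%) and none lower. Their log2 ratios ran from 0.04 (ZKSCAN4) to 2.25 (ZKSCAN1) with a median of 0.41. Of the genes named ZSCAN 15 were measured, and 4 were called higher (26.7%) and none lower. Their log2 ratios ran from -1.11 (ZSCAN2) to 2.97 (ZSCAN18) with a median of 0.79. Of all measured symbols 19.6% were called higher and 19.8% lower. With library totals the medians were 0.76 and 1.14. The difference between the name groups was not tested.

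Other genes known to encode a SCAN domain went both ways. Of 27 such genes with a row 25 were measured, and the median log2 ratio was 0.19. Of the 25, 5 were called higher and 2 lower (20% and 8%), beside 19.6% and 19.8% of all measured symbols. The share of higher genes was thus near that of all symbols. With library totals 8 were higher and 2 lower, beside 27.0% and 13.2% of all measured symbols, and the median was 0.54. With a filter of 20 CPM the median turned to -0.38. ZNF396 had 17 and 173 reads, a ratio of 6.34 (3.95 to 11.4), and ZNF446 had 37 and 312 reads, a ratio of 5.33 (3.82 to 7.80), both towards the NPC library. ZNF215 had 319 reads in hESC and 49 in the NPC library, 10.1-fold lower (7.52 to 14.1), and ZNF483 had 1038 and 231 reads, 7.02-fold lower (6.09 to 8.15). All 5 higher genes of this class reached 5 CPM in the NPC library alone, while 4 of the 6 higher ZSCAN and ZKSCAN genes reached it in both. Of all 2649 symbols called higher, 1388 reached it in both libraries, as did 35 of the 68 higher genes among other ZNF genes. Of 373 other measured ZNF genes 68 were called higher (18.2%) and 33 lower (8.85%), and the median log2 ratio was 0.31. Library totals gave 121 of 374 higher and 23 lower, beside 27.0% and 13.2% of all measured symbols. With a filter of 20 CPM the median of these ZNF genes was 0.22 and that of the family 0.13, so the order of the medians turned. No test of the difference between the classes was made.

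**Figure D3:**
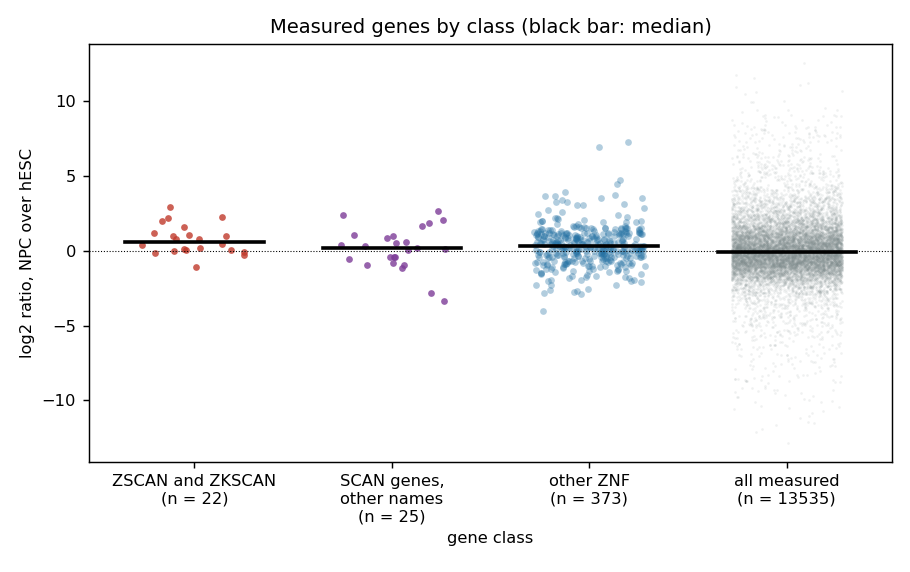
Log2 ratio, NPC over hESC, of each measured gene in 4 classes, with the class median as a black bar. The medians are 0.61 for ZSCAN and ZKSCAN genes, 0.19 for SCAN domain genes with other names, 0.31 for other ZNF genes and -0.09 for all measured symbols, which also hold the other classes; the points of the classes overlap widely, and with a filter of 20 CPM the family's median (0.13) lies below that of other ZNF genes (0.22).

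Position in the genome grouped some of the genes. A stretch of chromosome 6 holds 10 of the 27, of which 9 were measured, with a median log2 ratio of 0.97. ZKSCAN8, ZSCAN26 and ZSCAN23 were called higher there (33.3%) and none lower, beside 19.6% and 19.8% of all measured symbols. ZKSCAN4, a neighbour of ZSCAN9, had a log2 ratio of 0.04. Among genes that lie between them, PGBD1, which encodes a SCAN domain joined to a transposase-derived part, had 174 and 550 reads, a log2 ratio of 1.01, and was not called. On chromosome 7, ZKSCAN1 lies next to ZSCAN21 in RefSeq order, and these neighbours had log2 ratios of 2.25 and -0.30 (0.06 for ZSCAN21 with library totals). ZKSCAN5 (0.07) and ZSCAN25 (0.20) of the same stretch were not called. Of 2 measured genes of other families between them, FAM200A was called higher (118 and 464 reads, log2 ratio 1.32) and ZNF655 was not called (0.78). On chromosome 19, ZSCAN18 (2.97) and ZSCAN22 (0.98) lie among ZNF genes, of which 17 measured genes between ZSCAN4 and ZSCAN22 had a median log2 ratio of 0.15. Of these 17 genes 3 were called higher and 3 lower, beside 19.6% and 19.8% of all measured symbols. The 7 genes on other chromosomes had a median of 0.13, with ZSCAN30 the called one.

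**Figure D4:**
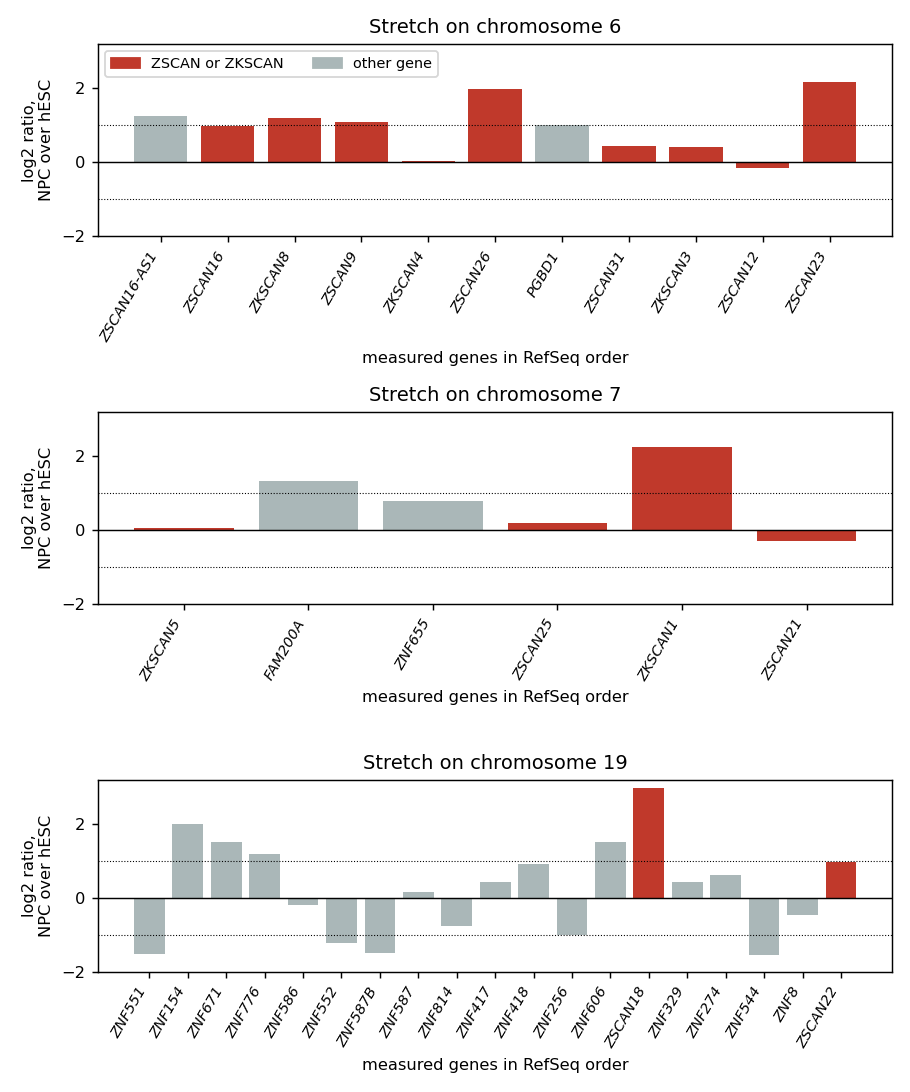
Log2 ratio, NPC over hESC, of the measured genes in 3 stretches that hold several ZSCAN and ZKSCAN genes, in RefSeq order, with dotted lines at 2-fold; bars are point ratios without an interval. ZKSCAN1 (2.25) and ZSCAN21 (-0.30), next to each other on chromosome 7, lie on opposite sides of no change.

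Genes through which KRAB domains act were also counted. Of 22 genes in the KRAB corepressor and heterochromatin list 21 had a row, and these were measured. Among them 1 was called higher and 2 lower (4.76% and 9.52%), beside 19.6% and 19.8% of all measured symbols. Their median log2 ratio was -0.08. With library totals 2 were higher and 1 lower, beside 27.0% and 13.2%. TRIM28, the corepressor that KRAB domains bind, had 15468 reads (890 CPM) in hESC and 6449 reads (237 CPM) in NPC, 3.75-fold lower (3.65 to 3.86). SETDB1, the histone H3K9 methyltransferase that TRIM28 recruits, had 906 and 1825 reads (52.1 and 67.1 CPM) and was not called. DNMT1, the maintenance DNA methyltransferase gene, was 2.19-fold lower (2.13 to 2.26), a call that was lost with library totals. CHD3, a remodeler of the NuRD complex, was 4.47-fold higher (4.19 to 4.78).

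In the list of autophagy and lysosome genes, the class that ZKSCAN3 is known to repress, 35 of 38 were measured, 7 were called higher and 3 lower (20% and 8.57%), beside 19.6% and 19.8% of all measured symbols. The share of higher genes was thus near that of all symbols. The median log2 ratio of the list was 0.19. MITF was 6.39-fold higher (5.05 to 8.29) and ULK2 4.28-fold higher (3.63 to 5.10), while GLA was 2.60-fold lower (2.19 to 3.11) and ATG5 2.51-fold lower (2.25 to 2.81). With library totals 9 were higher and none was lower, beside 27.0% and 13.2% of all symbols. MAP1LC3B, which encodes the autophagosome protein LC3B, had 43.2 and 69.8 CPM and was not called.

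Genes of the human cleavage-stage programme, with which ZSCAN4 is usually expressed, were near the detection limit. Of 19 such genes with a row 1 was measured, ARGFX, with 45 and 210 reads (2.59 and 7.72 CPM), 2.96-fold higher (2.15 to 4.21). In each library 12 of the 19 had 0 reads, in both of them DUX4 and LEUTX. The handling of multi-mapping reads is not given in the sources used here, so these zeros need not mean that RNA was absent. DUXA had 14 and 31 reads.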

How the data were processed

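The labels describe 1 library of H9 hESC and 1 of H9-derived NPC. Each deposited file holds raw read counts, 1 value for every row named by gene symbol. Per the submitters' processing notes, TopHat, edgeR and the hg19 build were used; the counter, annotation, strand setting and handling of multi-mapping reads were not given in the sources used here. Of 25737 rows per file, 286 symbols had more than 1 row, of which the one with most summed reads was kept. This set aside 0.0878% (hESC) and 0.107% (NPC) of reads.

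TMM factors (edgeR 4.0.16, R 4.3.3) were 0.884 for hESC and 1.13 for NPC. Ratios had 0.5 added to each count, with Clopper-Pearson 95% counting intervals. Lengths are of the longest transcript in GENCODE 29 (94.8% of measured symbols). Overlapping genes and neighbours were found from gene positions in GENCODE 29 and RefSeq, both on GRCh38, another build than that of the counts. They were linked to the counts by name. In simulated counts of 24462 genes without replicate variation for this comparison, 0 of 67 genes changed 1.5-fold, 67 of 67 changed 3-fold, 66 of 66 changed 8-fold and 0 of 12620 unchanged genes were called. The changed genes were drawn only from symbols with a mean level above a bound higher than the 5 CPM filter. The simulation thus does not cover less abundant genes such as ZSCAN23, or changes between 1.5-fold and 3-fold such as that of ZKSCAN8. The genes of the family and the lists were chosen with earlier results of these data known. All measured genes of the family were named, and of each other list up to 2 higher and 2 lower genes with the farthest interval bound. Other genes named (ZNF397, ZNF135, ZNF192P1, ZSCAN16-AS1, ZNF3, TUBGCP4, PGBD1, FAM200A, ZNF655, SETDB1, MAP1LC3B, DUX4, LEUTX, DUXA, CD34) were added after their values were seen, for their place or role. Alternatives were library totals, DESeq2 1.42.0 and upper-quartile factors, other filters and bounds, summed rows, log2(CPM + 1) and removal of the length trend (statsmodels 0.14.6). Counting intervals used scipy 1.17.1, and tables pandas 2.3.3 and numpy 2.4.6, in Python 3.11.15.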

Additional observations from a re-analysis of the deposited data

How the results depend on the processing

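The count of 6 higher genes was between 4 and 7 in all alternatives except 2 bounds: it was 2 with a near bound of 4-fold and 13 with any interval beyond no change. The share of all measured symbols called higher was 9.13% and 42.5% with these bounds. In the other alternatives that share ran from 16.6% (no filter) to 27.0% (library totals), with 19.6% in the main setting. The count of lower genes was 0 except with log2(CPM + 1) and with the point ratio alone (1 each, ZSCAN2), with any interval beyond no change (2) and, added after seeing the data, with ZSCAN10 included (1). Of all measured symbols 22.5%, 23.6%, 47.2% and 19.8% were called lower in these settings, in this order. A filter of 20 CPM left 11 measured genes, 5 of them higher. Without ZSCAN12P1 and the genes that overlap another on the opposite strand, a choice made after seeing the data, 11 were measured and 4 were higher (ZKSCAN1, ZKSCAN8, ZSCAN23 and ZSCAN26). With the length trend removed 7 were higher: ZKSCAN8 lost its call, and ZSCAN9 and ZSCAN16 gained one. The median log2 ratio of the family ran from 0.13 (filter of 20 CPM) to 0.98, and was 0.43 with ZSCAN10. That of other ZNF genes was 0.31, 0.70 with library totals and 0.22 with the filter of 20 CPM, where it lay above the family's. That of other SCAN genes turned from 0.19 to -0.38 with this filter. Of 132 ratios of single genes under 6 alternatives, 24 lay outside their counting interval, with library totals or the length trend removed, and no called gene changed direction. No paired analysis was possible because each group has 1 library. Genes under about 100 reads, such as ZSCAN23 or ZSCAN18 in the hESC library, have the widest intervals.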
